A study of Cricetiscus sungorus with 12 samples.

Results

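The 10 genes described here carry out the synthesis, breakdown, transport and reception of histamine and dopamine. For histamine they are Hdc (GeneID 15186), Hnmt (140483), Hrh1 (15465), Hrh2 (15466) and Hrh3 (99296). For dopamine they are Th (GeneID 21823), Ddc (13195), Slc6a3 (13162), Drd1 (13488) and Drd2 (13489). They were taken by their numerical mouse GeneIDs from a table of 17191 GeneIDs. No cutoff on measured values was applied, but the choice was made with earlier results of these data known. Hypothalamic mRNA was sequenced from 12 adult Djungarian hamsters of an outbred indoor colony, with 4 hamsters in each of 3 groups, all sampled at about ZT 4, that is 4 h after lights on. The LP-NT group stayed in long photoperiod with 16 h of light and 8 h of darkness and was normothermic (2 males and 2 females). The SP-NT group had acclimated to short photoperiod with 8 h of light and was sampled on a torpor-free day in normothermia (2 males and 2 females as labelled). The SP-HT group had the same short photoperiod and was sampled in spontaneous daily torpor with a hypothermic core body temperature (3 males and 1 female). Hamsters of both short photoperiod groups carried implanted temperature transmitters and had entered torpor on earlier days, whereas the LP-NT hamsters were not implanted, so short photoperiod, age and implantation cannot be told apart between SP and LP. The hypothalamus was trimmed from frozen brains as a block, so each library is a mixture of cells, and in such a mixture fewer cells of a type and less RNA per cell cannot be told apart.

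The expected counts of a library summed to between 20204979 and 24186918. The 10 genes had between 55 counts (the lowest library for Hrh2) and 4427 counts (the highest for Slc6a3), so none was near the limit of 3 counts per library. Levels are given as CPM, that is counts divided by the library total after TMM scaling over all 12 libraries. Hypothalamic peptide transcripts were present in every library, with between 81.8 and 312 CPM for the record matched to Avp and between 30.9 and 63.3 CPM for the record matched to Trh. The labels held in part. SP-NT replicate 19 is labelled male, but 3 records with 163 to 1699 counts in each of the 6 other males and at most 5 in any female had 0 or 1 counts there. These 3 records were picked after their values were seen. The record matched to Rbm3-ps, whose parent gene codes for a cold-inducible RNA-binding protein, was at 3.10 ± 0.671 CPM (SD, n = 4) in the libraries labelled SP-HT and 15.1 ± 1.5 CPM (SD, n = 4) in those labelled SP-NT, a direction opposite to the cold induction known for Rbm3. The normothermic LP-NT hamsters, at 14.9 ± 3.97 CPM (SD, n = 4), were close to SP-NT. Its name was matched on the size of the change, without its sign. The records matched to Jun and Bhlhe40 also placed SP-NT with LP-NT. They were at 50.7 and 85.1 CPM in SP-NT, 55.5 and 79.1 CPM in LP-NT, and 68.8 and 118 CPM in SP-HT (means, n = 4 each). Those matched to Pml and Glut3 did so too, but not all of the 60 matched records did. The mean of Per2 in LP-NT, 38.2 CPM, lay closer to SP-HT, at 33.9 CPM, than to SP-NT, at 47.5 CPM. Its adjusted p between SP-HT and SP-NT was 0.0292 in edgeR. Npy, with an adjusted p of 0.125 in edgeR, also had LP-NT closer to SP-HT. Every direction below refers to the libraries as labelled.

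Histamine in the brain is made from histidine by histidine decarboxylase (Hdc), in neurons of the tuberomammillary nucleus of the posterior hypothalamus that fire during waking, and mast cells also contain the enzyme. It is inactivated by histamine N-methyltransferase (Hnmt) and acts through the H1 and H2 receptors (Hrh1, Hrh2) on target cells and through the H3 receptor (Hrh3), which as an autoreceptor also lowers histamine release. Dopamine is made from tyrosine by tyrosine hydroxylase (Th), the rate-limiting enzyme, and aromatic L-amino acid decarboxylase (Ddc), is taken back up by the dopamine transporter (Slc6a3) and acts on receptors that raise (Drd1) or lower (Drd2) cyclic AMP. In the hypothalamus, dopamine neurons of the arcuate nucleus inhibit prolactin secretion.

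Of the 10 genes, Drd1 alone differed between groups past the threshold of an adjusted p of 0.05 in edgeR's quasi-likelihood test, and it did so between the libraries labelled SP-HT and SP-NT, where it was lower. No gene of the 10 was called between photoperiods or between SP-HT and LP-NT. Between photoperiods none of the 10 had groups without overlap, found for 3.44% of tested GeneIDs, or an unadjusted p below 0.05, found for 4.84%. Between SP-HT and SP-NT, Drd1 was also the only member at an unadjusted p below 0.05, found for 18.4%. The share of all tested GeneIDs called was 0.0370% between photoperiods (6 of 16199), 2.40% between SP-HT and SP-NT (389 of 16195) and 1.37% between SP-HT and LP-NT (221 of 16157). Called GeneIDs that were lower in SP-HT than in SP-NT made up 1.90% of those tested. The median log2(FC) over the 10 genes was -0.05 for SP-NT against LP-NT, -0.08 for SP-HT against SP-NT and -0.08 for SP-HT against LP-NT, beside medians over all tested GeneIDs of 0.00 to 2 decimals in each. These comparisons share groups with each other, so their values are not independent.

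**Figure D1:**
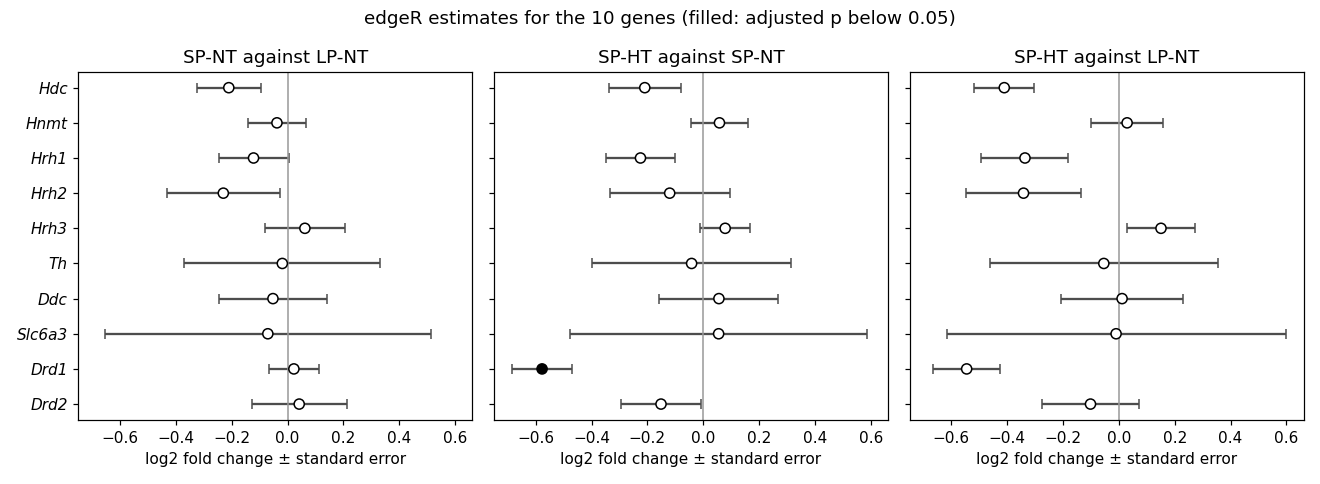
edgeR log2(FC) of the 10 genes (x axis, log2 units, bars are the standard error) for SP-NT against LP-NT on the left, SP-HT against SP-NT in the middle and SP-HT against LP-NT on the right, with n = 4 hamsters per group. A filled point marks an adjusted p below 0.05, which Drd1 alone reached, at -0.58 in SP-HT against SP-NT, while Slc6a3 and Th had the longest bars.

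Hdc, the enzyme that makes histamine, declined in mean level from LP-NT over SP-NT to SP-HT, but no step passed the adjusted threshold. In LP-NT replicates 01, 02, 03 and 05 it was at 19.2, 17.8, 20.2 and 18.3 CPM. In SP-NT replicates 19, 36, 37 and 38 it was at 14.5, 17.9, 13.7 and 19.0 CPM. In SP-HT replicates 02, 10, 26 and 33 it was at 11.9, 14.5, 13.7 and 16.4 CPM. The highest SP-HT hamster thus lay below the lowest LP-NT hamster, while SP-NT spread over both groups. The log2(FC) was -0.21 (standard error 0.114, adjusted p = 0.913 in edgeR) for SP-NT against LP-NT and -0.21 (standard error 0.130, adjusted p = 0.422 in edgeR) for SP-HT against SP-NT. Against LP-NT, the log2(FC) was -0.41 in SP-HT (standard error 0.107, unadjusted p = 0.00294, adjusted p = 0.0972 in edgeR), with a 95% interval of 0.63 to 0.90 on the fold. DESeq2 with default settings placed this difference past the threshold (adjusted p = 0.0217, with 706 GeneIDs or 4.37% called), whereas adding effective lengths to DESeq2 gave -0.34 and an adjusted p of 0.122. Hdc and Drd1 were the members with groups that did not overlap and an unadjusted p below 0.05 in SP-HT against LP-NT, beside shares over all tested GeneIDs of 10.6% for groups without overlap and 15.1% for that p.

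Hnmt, the enzyme that inactivates histamine, was the most even of the 5 histamine genes over the group means, with 22.1 ± 3.05 CPM for LP-NT, 21.6 ± 1.15 for SP-NT and 22.5 ± 3.27 for SP-HT (SD, n = 4 each). Its 12 values ran from 17.7 CPM in SP-HT replicate 33 to 25.4 CPM in LP-NT replicate 05, and the groups overlapped in every comparison. The log2(FC) lay between -0.04 and 0.06, and the 95% intervals on the fold reached from 0.82 at the lowest bound to 1.27 at the highest.

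The receptors differed in level and in scatter. Hrh1, a receptor that excites its target neurons, was at 9.69 ± 1.68 CPM for LP-NT, 8.92 ± 0.312 for SP-NT and 7.64 ± 1.19 for SP-HT (SD, n = 4 each). LP-NT replicate 01 held its highest value, 12.2 CPM, and SP-HT replicate 02 its lowest, 6.08 CPM, and the groups overlapped. The log2(FC) of SP-HT was -0.22 against SP-NT (adjusted p = 0.357 in edgeR) and -0.34 against LP-NT (adjusted p = 0.343 in edgeR). In the second of these, the log2(FC) was -0.21 without LP-NT replicate 01. Hrh2 had the fewest counts of the 10 genes, with 4.32 ± 0.784 CPM for LP-NT, 3.69 ± 0.819 for SP-NT and 3.40 ± 0.748 for SP-HT (SD, n = 4 each). Its fold between groups had wide 95% intervals, from 0.64 to 1.32 for SP-HT against SP-NT, so a fall or a rise within those bounds was not set apart from no change. Hrh3, the autoreceptor, was the most abundant of the histamine receptors. It was at 54.1 ± 11.1 CPM for LP-NT, 56.5 ± 7.68 for SP-NT and 59.7 ± 2.87 for SP-HT (SD, n = 4 each). These means differed by less than the SDs of LP-NT and SP-NT, whereas the SD of SP-HT was smaller. The log2(FC) of SP-HT against LP-NT was 0.15 (standard error 0.123, adjusted p = 0.614 in edgeR).

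**Figure D2:**
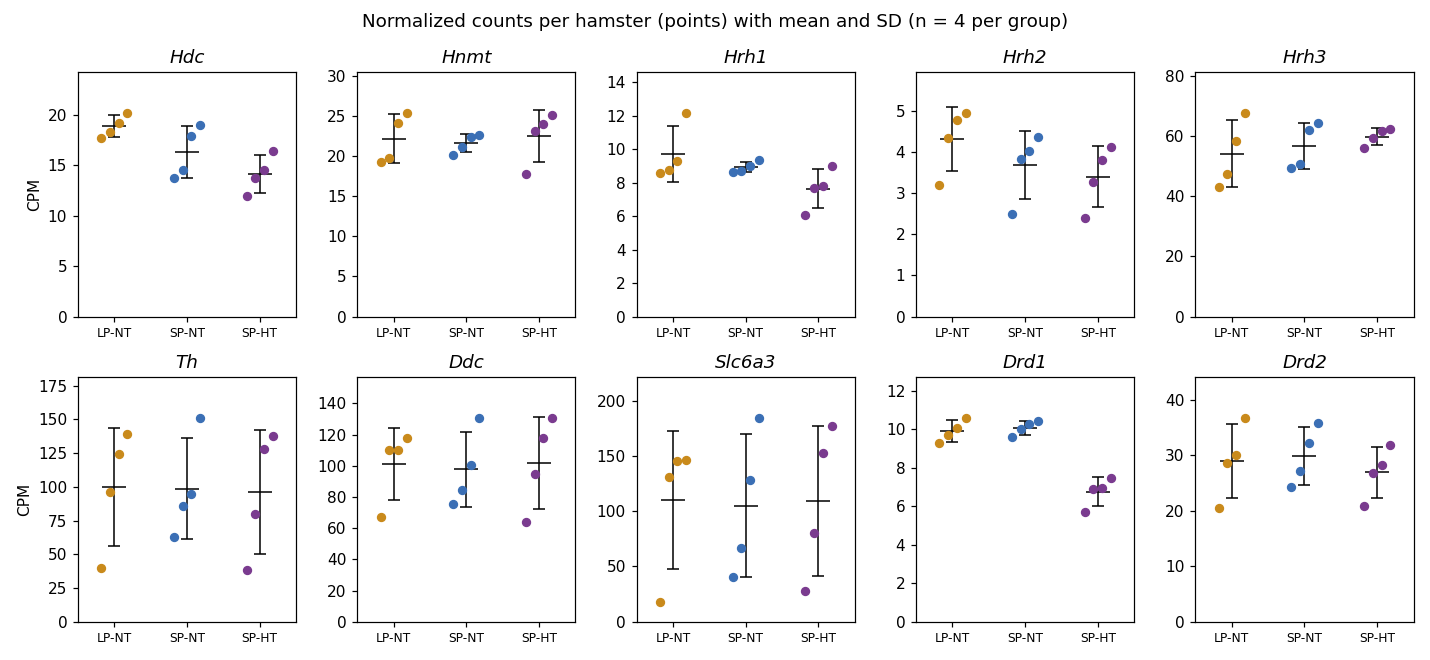
Level of each of the 10 genes in CPM (y axes from 0, separate scales) in the 4 hamsters of LP-NT, SP-NT and SP-HT; points are hamsters in ascending order, the long bar is the mean and the whiskers are 1 SD. Drd1 in SP-HT, at 5.69 to 7.45 CPM, lies below all other hamsters, at 9.29 to 10.6 CPM, while Slc6a3 runs from 17.7 to 184 CPM with all 3 groups overlapping.

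Among the dopamine genes, the means of Th, Ddc and Slc6a3 were nearly level across the groups, while the hamsters within each group differed widely. The blocks were trimmed with a razor blade, and whether their share of tissue bordering the hypothalamus differed between hamsters was not tested. Slc6a3, the transporter that marks dopamine-releasing neurons, was at 17.7, 146, 146 and 131 CPM in LP-NT replicates 01, 02, 03 and 05. It was at 67.0, 184, 40.3 and 129 CPM in SP-NT replicates 19, 36, 37 and 38. It was at 28.1, 80.4, 177 and 152 CPM in SP-HT replicates 02, 10, 26 and 33. Each group therefore held hamsters at the low and at the high end, and the highest value, in SP-NT replicate 36, was 10.4 times the lowest, in LP-NT replicate 01. The group means were 110 ± 62.1 CPM for LP-NT, 105 ± 64.5 for SP-NT and 109.3 ± 67.8 for SP-HT (SD, n = 4 each). The log2(FC) of SP-HT against SP-NT was 0.06 (standard error 0.533, adjusted p = 0.971 in edgeR). The 95% interval on the fold ran from 0.42 to 2.57, so a fall or a rise within those bounds was not set apart from no change.

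Th, the rate-limiting enzyme, was at 40.0, 139, 124 and 95.8 CPM in LP-NT replicates 01, 02, 03 and 05. In SP-NT replicates 19, 36, 37 and 38 it was at 86.1, 151, 62.6 and 94.4 CPM, and in SP-HT replicates 02, 10, 26 and 33 at 38.5, 79.5, 138 and 128 CPM. As for Slc6a3, LP-NT replicate 01 and SP-HT replicate 02 were lowest and SP-NT replicate 36 was highest, and the groups overlapped. The log2(FC) was -0.02 (standard error 0.351, adjusted p = 0.992 in edgeR) between photoperiods and -0.04 (standard error 0.355, adjusted p = 0.968 in edgeR) between SP-HT and SP-NT. Ddc, the decarboxylase that also serves serotonin synthesis, was at 67.2, 110, 118 and 110 CPM in LP-NT replicates 01, 02, 03 and 05. It was at 84.6, 130, 75.5 and 101 CPM in SP-NT replicates 19, 36, 37 and 38 and at 63.9, 94.6, 131 and 118 CPM in SP-HT replicates 02, 10, 26 and 33. LP-NT replicate 01 and SP-HT replicate 02 were again lowest, while SP-HT replicate 26 and SP-NT replicate 36 were highest, and the highest value was 2.04 times the lowest. The log2(FC) was -0.05 (adjusted p = 0.972 in edgeR) between photoperiods and 0.06 (adjusted p = 0.923 in edgeR) between SP-HT and SP-NT.

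The scatter within groups was larger for the transporter than for nearly all other genes. The within-group SD of log2 CPM was 1.24 for Slc6a3, which ranked 39 of 13940 GeneIDs with a mean of at least 1 CPM, so that 0.273% had a larger one. It was 0.742 for Th (rank 155), 0.394 for Ddc (rank 941), 0.321 for Hrh2 and 0.287 for Drd2. The median over those GeneIDs was 0.142, and Drd1, at 0.110, lay below it. The low values of LP-NT replicate 01 entered each comparison with LP-NT. Without that hamster, the log2(FC) of SP-NT against LP-NT was -0.43 for Slc6a3, -0.28 for Th and -0.21 for Ddc, in each case with an adjusted p of 0.996 in edgeR.

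Of the dopamine receptors Drd1 and Drd2, only Drd1 was called, and the difference between the changes of these genes was not tested. Drd1, which couples to the stimulatory G protein, was at 10.6, 9.29, 10.1 and 9.68 CPM in LP-NT replicates 01, 02, 03 and 05. It was at 9.61, 10.4, 10.0 and 10.2 CPM in SP-NT replicates 19, 36, 37 and 38, and at 6.92, 5.69, 6.96 and 7.45 CPM in SP-HT replicates 02, 10, 26 and 33. All 4 hamsters labelled SP-HT lay below all 8 normothermic hamsters, and the normothermic groups overlapped. In counts, the SP-HT libraries held 118 to 158 and the SP-NT libraries 232 to 254. These counts are not scaled for depth, and the median library total was 21832555 in SP-HT and 23941442 in SP-NT. The mean level was 10.1 ± 0.347 CPM in SP-NT and 6.75 ± 0.748 CPM in SP-HT (SD, n = 4 separate hamsters each). The log2(FC) was -0.58 (standard error 0.108, adjusted p = 0.0232 in edgeR), a fold of 0.670 with a 95% interval of 0.56 to 0.80. Groups that did not overlap were found for 12.1% of all tested GeneIDs in this comparison, and for 7.39% with SP-HT lower. In SP-HT against LP-NT they were found for 10.6%. The share of GeneIDs with SP-HT apart from both normothermic groups at once is not given here. Drd1 was also past the threshold in DESeq2 (adjusted p = 0.000436, with 6.28% of GeneIDs called), in limma with voom (adjusted p = 0.0200) and with the log2 CPM of Slc6a3 as a covariate, a setting chosen after seeing the data (log2(FC) -0.58, adjusted p = 0.0310 in edgeR, with 2.19% of GeneIDs called).

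The call of Drd1 was close to the threshold with fewer hamsters. Leaving out each of the 8 hamsters in turn kept the log2(FC) between -0.62 and -0.50 but ended the call in 5 cases. In edgeR the adjusted p was 0.0530 and 0.0552 when replicate 10 or 26 of SP-HT was missing, and 0.0564, 0.0715 and 0.0675 when replicate 19, 36 or 38 of SP-NT was missing. With the labelled sex as a covariate the adjusted p was 0.0498 in edgeR, and 0.130 when SP-NT replicate 19, whose sex label was in doubt, was left out as well. Against LP-NT, the log2(FC) of SP-HT was -0.54 (standard error 0.120, unadjusted p = 0.000886, adjusted p = 0.0560 in edgeR). This comparison passed the threshold in DESeq2 (adjusted p = 0.00362) and in an edgeR fit of all 12 libraries (adjusted p = 0.00996), where the groups share an estimate of the spread. Between photoperiods the log2(FC) of Drd1 was 0.02 (standard error 0.0886, adjusted p = 0.974 in edgeR), with a 95% interval of 0.87 to 1.18 on the fold.

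Drd2, the inhibitory receptor that dopamine neurons also carry as an autoreceptor, was at 20.5, 36.7, 30.05 and 28.6 CPM in LP-NT replicates 01, 02, 03 and 05. It was at 27.2, 35.8, 24.2 and 32.2 CPM in SP-NT replicates 19, 36, 37 and 38, and at 20.9, 26.8, 31.9 and 28.2 CPM in SP-HT replicates 02, 10, 26 and 33. The groups overlapped, and the lowest hamsters were again LP-NT replicate 01 and SP-HT replicate 02. The log2(FC) of SP-HT against SP-NT was -0.15 (standard error 0.142, adjusted p = 0.615 in edgeR), with a 95% interval of 0.71 to 1.15 on the fold. With the log2 CPM of Slc6a3 as a covariate it was also -0.15 (standard error 0.0611, unadjusted p = 0.0374, adjusted p = 0.236 in edgeR). The ratio of Drd1 to Drd2 in TPM, which is scaled by transcript length, was 0.344 ± 0.118 for LP-NT, 0.324 ± 0.0324 for SP-NT and 0.241 ± 0.0524 for SP-HT (SD, n = 4 each), with overlapping groups.

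Across the 12 hamsters, Th, Ddc, Slc6a3 and Drd2 varied together, whereas Drd1 did not vary with them. Over the 12 hamsters, the log2 CPM of Th and Slc6a3 had Pearson's r = 0.97 and Spearman's rho = 0.97 (permutation p = 1e-05 and 3e-05, adjusted p = 0.00015 and 0.000675 over 45 pairs), where 1e-05 is the smallest p the permutations can give. Without the hamsters farthest from the median of Th, SP-HT replicate 02 and LP-NT replicate 01, r was 0.92 (permutation p = 3e-05), and on deviations from the group means it was 0.97. Th and Ddc had r = 0.96 and rho = 0.94 (permutation p = 1e-05 and 5e-05, adjusted p = 0.00015 and 0.00075), with r = 0.93 without the same hamsters. Slc6a3 and Ddc had r = 0.97 and rho = 0.98 (permutation p = 1e-05 each, adjusted p = 0.00015 and 0.00045), again with 0.97 without the same hamsters.

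Drd2 moved with these 3 genes. Its r was 0.93 with Th (rho 0.90, adjusted permutation p = 0.000225 and 0.00248), 0.92 with Slc6a3 (rho 0.83, adjusted permutation p = 0.00027 and 0.011) and 0.88 with Ddc (rho 0.78, adjusted permutation p = 0.00158 and 0.0223). Without SP-HT replicate 02 and LP-NT replicate 01 these fell to 0.83, 0.80 and 0.72 (adjusted permutation p = 0.0304, 0.0362 and 0.0843), so the pair of Drd2 and Ddc no longer passed. Drd1 had r = 0.06 with Th, -0.01 with Ddc and -0.03 with Slc6a3, and r = 0.16 with Drd2 (rho 0.14, permutation p = 0.613 and 0.67, adjusted p = 0.766 and 0.864), a value that turned to -0.20 without SP-HT replicates 10 and 02 and to -0.15 on deviations from the group means.

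**Figure D3:**
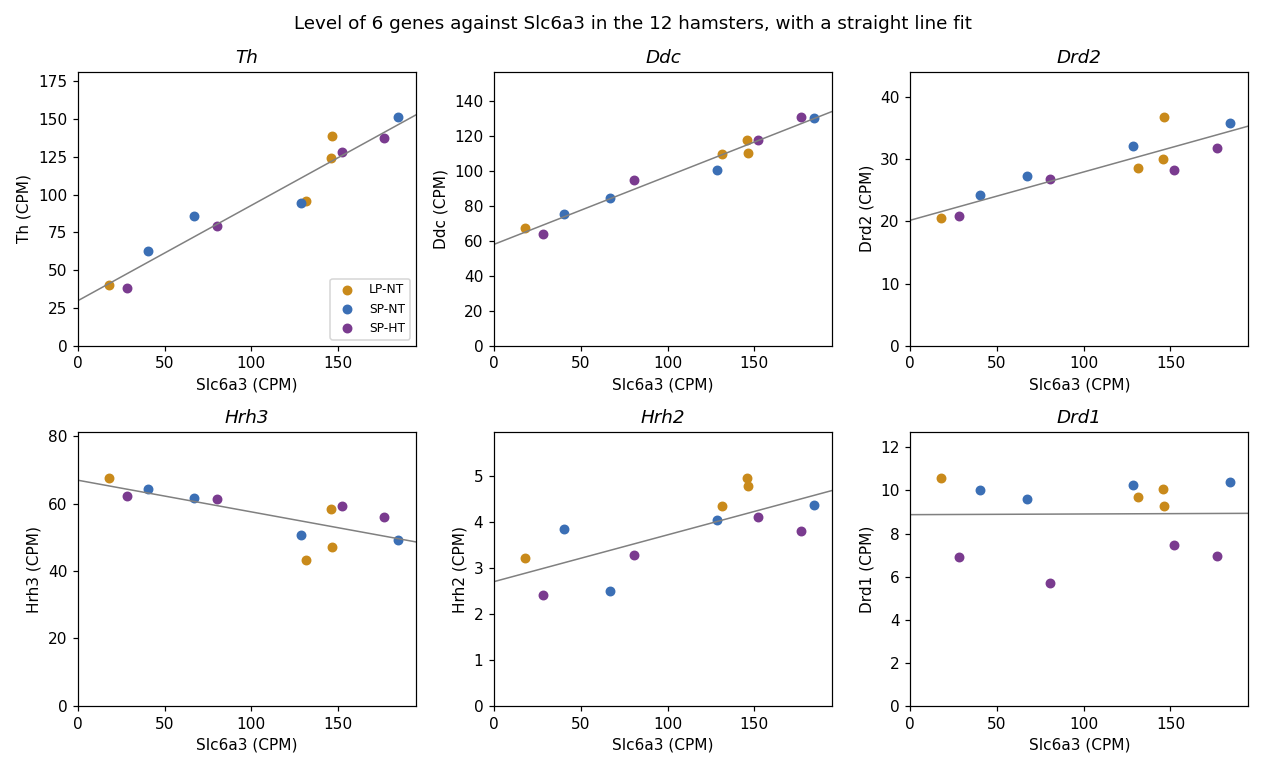
Level of Th, Ddc, Drd2, Hrh3, Hrh2 and Drd1 (y axes, CPM) against the level of Slc6a3 (x axis, CPM) in the 12 hamsters, coloured by group; lines are straight-line fits. Th, Ddc and Drd2 climb with Slc6a3 in all 3 groups, Hrh3 descends, and Drd1 is lower in the SP-HT hamsters at low and at high levels of Slc6a3.

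The slopes differed between the genes. On straight lines over the 12 hamsters, described here without a test and chosen after the values were seen, Th was higher by 63.1 CPM and Ddc by 39.0 CPM for every 100 CPM of Slc6a3, and Drd2 by 7.77 CPM. The lines met the axis at 29.8 CPM for Th, 58.0 CPM for Ddc and 20.2 CPM for Drd2, points outside the measured range. Slc6a3 accounted for 92.5% of the variance of Th, 97.2% of that of Ddc and 78.3% of that of Drd2. The ratio of Slc6a3 to Th in TPM accordingly ran from 0.285 to 0.853 within LP-NT, from 0.404 to 0.848 within SP-NT and from 0.463 to 0.791 within SP-HT.

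Of the histamine receptors, Hrh2 and Hrh3 also varied with dopamine genes. Hrh1 had r of 0.06 with Th, 0.09 with Ddc, -0.07 with Slc6a3 and 0.08 with Drd2. With Drd1 its r was 0.63 (adjusted permutation p = 0.0664). Hrh3 was lower where Drd2 and Slc6a3 were higher, with r = -0.74 (rho -0.88, adjusted permutation p = 0.0377 and 0.00369) and r = -0.70 (rho -0.76, adjusted permutation p = 0.0459 and 0.0248). The first was -0.89 (adjusted permutation p = 0.00889) without LP-NT replicates 05 and 02. The second was -0.61 (adjusted permutation p = 0.173) without LP-NT replicate 01 and SP-HT replicate 02, and no longer passed the threshold with fewer hamsters. Hrh2 was higher where Ddc, Th and Drd2 were higher, with r of 0.74, 0.71 and 0.70 (adjusted permutation p = 0.0377, 0.0459 and 0.0487) and rho of 0.68, 0.76 and 0.74 (adjusted permutation p = 0.0466, 0.0248 and 0.0266). Without SP-HT replicate 02 and SP-NT replicate 19 these were 0.64, 0.73 and 0.71 (adjusted permutation p = 0.16, 0.0843 and 0.0843), none of them past the threshold. In log2 TPM, which also takes up the effective lengths, Hrh2 with Ddc and with Th (adjusted permutation p = 0.0545 and 0.0559) and Hrh3 with Drd2 and with Slc6a3 (adjusted permutation p = 0.0945 and 0.0755) missed the threshold as well. Hrh2 with Drd2 passed there (r = 0.77, adjusted permutation p = 0.0136). On deviations from the group means these pairs of Hrh2 and Hrh3 all passed, with adjusted permutation p from 0.0151 to 0.0219. In all, 11 of the 45 pairs passed the adjusted threshold for r, 9 with a positive and 2 with a negative sign, and all 11 also passed for rho. The share over pairs of all GeneIDs is not given here. Hdc did not pass with either Hrh3 (r = -0.43, rho = -0.31, adjusted permutation p = 0.341 and 0.55) or Hnmt (r = -0.19, rho = -0.11, adjusted permutation p = 0.731 and 0.864).

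**Figure D4:**
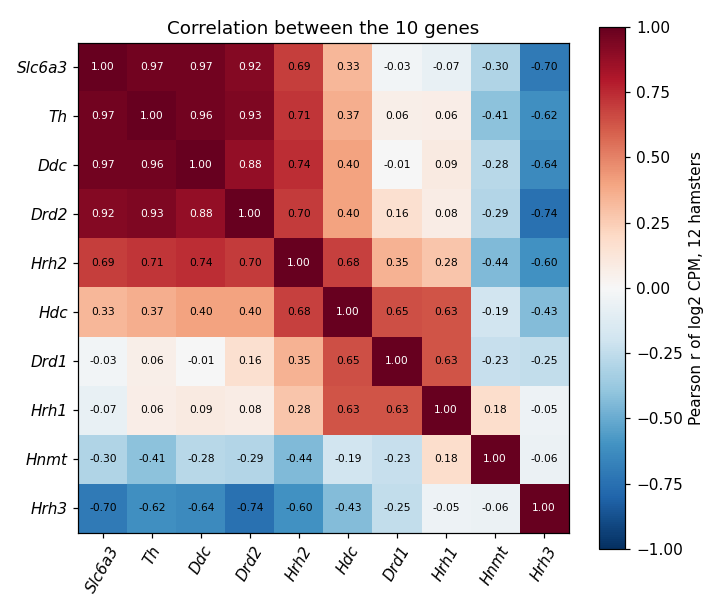
Pearson's r of log2 CPM for all pairs of the 10 genes over the 12 hamsters (colour scale from -1 to 1, values printed in the cells). Slc6a3, Th, Ddc and Drd2 form a block with r between 0.88 and 0.97, Hrh3 is negative against each of them, and Drd1 lies between -0.03 and 0.16 against them.

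Other records of the table followed the same hamsters. Of the 13939 other GeneIDs with a mean of at least 1 CPM, 20 had r above 0.9 with Slc6a3, 20 with Th, 18 with Ddc and 14 with Drd2, other members above that value included. The record most like Slc6a3 was GeneID 108043 (r = 0.99), followed by GeneID 11440 (r = 0.99), which was also the most like Th (r = 0.98). The files do not pair these GeneIDs with names. Drd1 had 74 GeneIDs with r above 0.9 and 11 below -0.9, and none of the other 9 members was among them. For Hdc, Hnmt and Hrh2 no GeneID exceeded 0.9. These correlations are descriptions over 12 hamsters that share libraries and groups.

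Levels between genes can be compared only per length. In TPM over the 12 hamsters, the order was Ddc (122 ± 29.2), Hrh3 (102 ± 13.5), Th (99.7 ± 39.4), Slc6a3 (69.0 ± 37.4), Hnmt (32.9 ± 3.29), Drd2 (26.0 ± 5.31), Hdc (20.4 ± 3.30), Hrh1 (7.67 ± 1.18), Drd1 (7.64 ± 1.53) and Hrh2 (4.83 ± 1.37) (SD, n = 12 each). Th exceeded Slc6a3, Hdc exceeded Hrh1 and Drd1 exceeded Hrh2 in 12 of 12 hamsters, and Drd2 exceeded Hdc in 11. Ddc exceeded Hrh3 in 8 hamsters, Hrh3 exceeded Th in 5, Slc6a3 exceeded Hnmt in 9, Hnmt exceeded Drd2 in 9 and Hrh1 exceeded Drd1 in 5, so these neighbours were not set apart by their spread over hamsters. Within the histamine genes, Hrh3 exceeded its ligand's enzyme Hdc by a TPM ratio of 4.15 ± 0.670 for LP-NT, 5.23 ± 1.56 for SP-NT and 6.23 ± 1.09 for SP-HT (SD, n = 4 each). The LP-NT ratios, from 3.55 to 5.10, lay below the SP-HT ratios, from 5.49 to 7.83, and the SP-NT ratios overlapped with both. This ratio was not tested. Among the ratios computed, it alone had LP-NT and SP-HT ranges that did not overlap. It is not separate from Hdc, whose CPM values did not overlap between these groups either. Groups without overlap were found for 10.6% of all tested GeneIDs in SP-HT against LP-NT. The share over ratios of other GeneIDs is not given here.

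**Figure D5:**
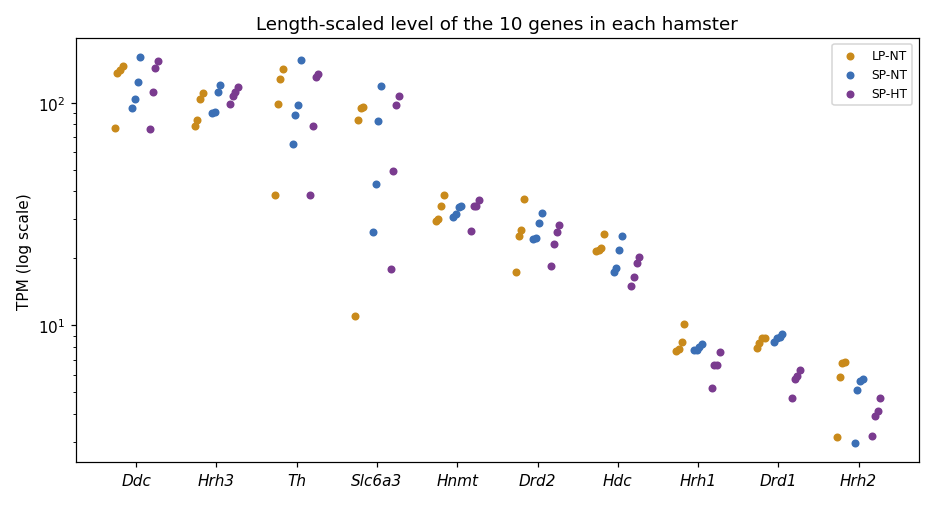
Length-scaled level (y axis, TPM, log scale) of the 10 genes in each of the 12 hamsters, coloured by group and ordered by the mean over all hamsters. Ddc, Hrh3 and Th lead and overlap, Slc6a3 spans from 10.97 to 119 TPM, and Hrh2 is lowest in mean at 4.83 TPM.

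A record can join several assembled transcripts whose best hit is the same mouse protein. The Drd1 record joined 2 transcripts of 1 assembled gene and Th 3 transcripts of 1 assembled gene, whereas Ddc joined 8 transcripts of 5 assembled genes and Slc6a3 8 transcripts of 3. The effective length of Drd1 ranged from 3151 to 3278 bases over the 12 libraries. That of Hrh2, which joined 9 transcripts, ranged from 1937 to 2663 bases.

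Between females and males as labelled, with the group as a covariate, edgeR called 0 of 16380 GeneIDs (0% of those tested), with 748 (4.57%) at an unadjusted p below 0.05, and 13 were called by DESeq2. None of the 10 genes was among those at an unadjusted p below 0.05, and the log2(FC) of female against male lay between -0.18 for Hrh1 and 0.04 for Hrh2. Without SP-NT replicate 19, 9 GeneIDs were called and none was one of the 10 genes.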

How the data were processed

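Per the study's methods and the labels, the authors pooled the trimmed reads of all libraries (Trim Galore 0.6.6, FastQC 0.11.9) into a de novo Trinity assembly, kept transcripts with a best hit among mouse proteins (GRCm39), grouped them by mouse GeneID and quantified each library with Bowtie 1.3.0 and RSEM 1.3.1. The deposited values used here were expected counts, which are not normalized, TPM, which the authors' RSEM run scaled by length and library, and effective lengths. The deposited FPKM values were not used. How the mouse GeneIDs map to hamster coordinates is not given in the sources used here, and no sequences were printed.

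Expected counts were rounded. Each comparison was fitted on its own 8 libraries, with GeneIDs under 10 counts in total left out, in edgeR 4.0.16 (TMM, quasi-likelihood test, R 4.3.3) without covariates, with Benjamini-Hochberg adjustment over all tested GeneIDs and a threshold of 0.05. DESeq2 1.42.0, limma 3.58.1 with voom and other settings were alternatives. The scripts were tested on simulated counts. Log2 CPM used a prior count of 2. Correlations had two-sided p from 100000 permutations. All 10 genes passed the count minimum. The libraries came from separate hamsters. Names of 60 other records were attached by matching the size of their fitted values to the study's tables (a main table for Rbm3-ps, a supplementary table for the others), with the sign in torpor left out. Further pathway and cell type marker lists were not used here, because most GeneIDs carried no name. The rule for named genes was to report all 10 genes in every comparison and to give the records with the most similar patterns. The genes, lists and tests were chosen with earlier results of these data known. The 95% intervals on folds are the log2(FC) plus or minus a t quantile times the standard error. They describe the uncertainty of the difference between groups, not the range of single hamsters. Their degrees of freedom came from the 8 libraries alone, without edgeR's pooling over genes, so they need not match the p values.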

Additional observations from a re-analysis of the deposited data

Results flagged for a closer look

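In 2 of the 30 sets of 4 hamsters (10 genes in 3 groups), 1 hamster lay further from the others than Dixon's 95% limit, and chance gives about 1 in 20 sets. Both were LP-NT replicate 01. Slc6a3, the dopamine transporter, was at 17.7 CPM there and between 131 and 146 CPM in the other 3 LP-NT hamsters. Ddc, the decarboxylase, was at 67.2 CPM there and between 110 and 118 CPM in the others. Values as low for Ddc were found in SP-HT replicate 02, at 63.9 CPM. Since Slc6a3 and Ddc correlated over the hamsters, these are not separate results.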

How the results depend on the processing

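Of 250 log2(FC) values with a hamster left out, 192 kept their direction and side of the threshold, 5 kept their direction but lost the call (all Drd1 in SP-HT against SP-NT) and 53 changed sign, none of them called. Of 357 values under other alternatives, these counts were 337, 1 and 15, and 4 passed the threshold that had not before. The causes were not tested. GeneIDs called between photoperiods (6, with 1 higher and 5 lower in SP-NT) numbered 33 in DESeq2 (18 higher) and 32 in DESeq2 with effective lengths (15 higher). Between SP-HT and SP-NT (389, with 82 higher and 307 lower in SP-HT) they numbered 1017 in DESeq2 (413 higher, 604 lower), 759 with effective lengths in DESeq2 (303 higher, 456 lower), 146 with a length offset, 242 with labelled sex and 36 with labelled sex and without SP-NT replicate 19 (12 higher). Between SP-HT and LP-NT they numbered 706 in DESeq2, 623 with effective lengths in DESeq2 (243 higher, against 57 of 221 in edgeR), 102 with a length offset and 612 in the fit of all 12 libraries. Between sexes they numbered 13 in DESeq2, 3 without a count minimum and 9 without SP-NT replicate 19. Leaving out a hamster gave 104 to 318 GeneIDs for SP-HT against SP-NT and 55 to 200 for SP-HT against LP-NT, with fewer hamsters. The correlation of Drd1 with Drd2 turned to -0.20 without SP-HT replicates 10 and 02 and to -0.15 on deviations from group means.

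Sign changes of uncalled log2(FC) were as follows. In SP-NT against LP-NT, Th was 0.052 and Slc6a3 0.091 in limma with voom, Th 0.0029 with the Slc6a3 covariate, and Slc6a3 0.089 with labelled sex without SP-NT replicate 19. In SP-HT against SP-NT, Slc6a3 was -0.036 in limma with voom and -0.27 with labelled sex, and Ddc -0.033 with labelled sex. Without SP-NT replicate 19 as well they were -0.86 and -0.22. In SP-HT against LP-NT, Slc6a3 was 0.072 in limma with voom, and Ddc was -0.0065 there, -0.057 with labelled sex, -0.018 with the length offset, -0.014 in DESeq2 with effective lengths and -0.024 with the Slc6a3 covariate.

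Omitting hamsters 1 at a time, the ranges for SP-NT against LP-NT were -0.10 to 0.035 for Hnmt, -0.18 to 0.0067 for Hrh1, -0.032 to 0.19 for Hrh3, -0.30 to 0.18 for Th, -0.22 to 0.054 for Ddc, -0.49 to 0.20 for Slc6a3, -0.0082 to 0.056 for Drd1 and -0.092 to 0.18 for Drd2. For SP-HT against SP-NT they were -0.26 to 0.019 for Hrh2, -0.27 to 0.24 for Th, -0.088 to 0.23 for Ddc and -0.28 to 0.47 for Slc6a3. For SP-HT against LP-NT they were -0.030 to 0.13 for Hnmt, -0.32 to 0.22 for Th, -0.15 to 0.19 for Ddc, -0.37 to 0.32 for Slc6a3 and -0.24 to 0.035 for Drd2. Between sexes, without SP-NT replicate 19, Hnmt was 0.0049, Hrh2 -0.10 and Drd2 -0.011. No paired analysis was possible because the groups compared share at most 1 replicate number, which only names a hamster. Planned correlations of Drd1 with Ppp1r1b, Drd2 with Adora2a and Ddc with Tph2 were not run, since these names were not attached to GeneIDs here. Depth limits Hrh2 most, at 55 to 110 counts.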
